A study of Mus musculus with 3 samples.

Results

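The genes described here are 9 cytokine receptor genes of mouse haematopoietic cells that stand outside the shared beta chain (IL-3) receptor group: Il2rg, Il2rb, Il4ra, Il7r, Il6st, Il6ra, Lifr, Csf3r and Epor. They were chosen by name from receptors that are often introduced into the host line, though with earlier results of these data known. They are 9 of 55211 genes measured. The cells were Ba/F3, a mouse line that depends on interleukin-3 (IL-3) for growth, kept in RPMI medium with 10% fetal calf serum, penicillin-streptomycin and 0.2 ng/mL recombinant murine IL-3. RNA came from 3 separate cultures for which the labels name no treatment or modification, and which form 1 group, so the data hold no contrast between conditions and describe 1 line in 1 medium. Polyadenylated RNA was read as 50-base single-end reads, with a depth of 32044889 reads on genes in culture 1, 33880292 in culture 2 and 37180883 in culture 3. Levels are CPM (a gene's reads scaled to the total of its culture in the usual way), or RPKM (CPM divided by the kilobases of the longest transcript) where genes are compared with each other.

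Cytokine receptors of class I share an extracellular cytokine-binding fold that carries a conserved WSXWS box. In gp130, LIFR and the G-CSF receptor further domains lie between that fold and the membrane. Class I receptors signal through JAK kinases bound to their cytoplasmic tails. IL2RG, the common gamma chain, pairs with IL-2Rβ, IL-4Rα, IL-7Rα, IL-9R or IL-21R and carries JAK3, while its partners carry JAK1. IL6ST, or gp130, is the signalling chain for IL-6 (with IL-6Rα), for LIF (with LIFR) and for several related cytokines. The receptors for G-CSF (Csf3r) and erythropoietin (Epor) are homodimers, and the latter works through JAK2 in red cell precursors. Ba/F3 cells are widely used as hosts for receptors supplied from outside, which makes their own receptor repertoire of interest.

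The coding sequence of each gene holds the codons of the WSXWS box that defines the class, and a stretch of 50 bases around it, as long as 1 read, is shown for each gene. The sequences are the GRCm38 reference from GENCODE M21 transcripts, 5′ to 3′ on the coding strand, with the box codons in capitals. They are not read from the cells.
Il2rg, chrX:101266197-101266246, minus strand, exon 5: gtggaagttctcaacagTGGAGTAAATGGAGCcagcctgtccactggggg
Il2rb, chr15:78485745-78485794, minus strand, exon 7: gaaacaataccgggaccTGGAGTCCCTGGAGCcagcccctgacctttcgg
Il4ra, chr7:125571537-125571586, plus strand, exon 7: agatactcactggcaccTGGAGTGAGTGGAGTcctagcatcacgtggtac
Il7r, chr15:9511133-9511182, minus strand, exon 5: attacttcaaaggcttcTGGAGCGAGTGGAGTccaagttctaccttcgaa
Il6st, chr13:112490580-112490629, plus strand, exon 8: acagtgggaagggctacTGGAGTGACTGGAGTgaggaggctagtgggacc
Il6ra, chr3:89885912-89885961, minus strand, exon 6: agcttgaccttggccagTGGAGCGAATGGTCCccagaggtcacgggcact
Lifr, chr15:7177532-7177581, plus strand, exon 10: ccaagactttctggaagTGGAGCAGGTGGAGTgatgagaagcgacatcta
Csf3r, chr4:126034513-126034562, plus strand, exon 8: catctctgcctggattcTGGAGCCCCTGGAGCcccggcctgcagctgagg
Epor, chr9:21960700-21960749, minus strand, exon 5: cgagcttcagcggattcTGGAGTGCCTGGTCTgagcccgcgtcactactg
Each stretch lay within 1 exon, and Lifr held 2 such boxes, of which the one nearer the 3′ end is shown. All stretches except that of Il2rg were found in no annotated transcript of another gene. The Il2rg stretch also occurs in Gm20489, a predicted coding gene on the same strand that spans the Il2rg locus and had no read in any culture. Over the whole longest transcript, 42.0% of the 50-base stretches of Il2rg were shared with Gm20489. If reads that fit both genes were discarded in counting, the Il2rg level is too low; this was not tested. For Il2rb, Il4ra, Il6st, Lifr and Epor the share found in another gene's transcript was 0%, for Il7r 1.12%, for Il6ra 2.30% and for Csf3r 11.5%. Reads of the genes without signal could thus be told from other annotated transcripts over at least most of their length.

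The 9 genes fell into 4 with at least 148 reads in every culture and 5 with at most 1 read in all 3 cultures together. Il4ra, Il2rg, Il2rb and Epor were detected, meaning at least 1 CPM in every culture, beside 45.9% of all protein-coding genes. Il6st, Lifr and Csf3r had no read, as had 34.7% of protein-coding genes. Il7r and Il6ra had 1 read each, both in culture 3, and 40.0% of protein-coding genes had at most 1 read. No gene of the 9 lay between 0.0269 and 4.49 CPM in any culture.

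**Figure D1:**
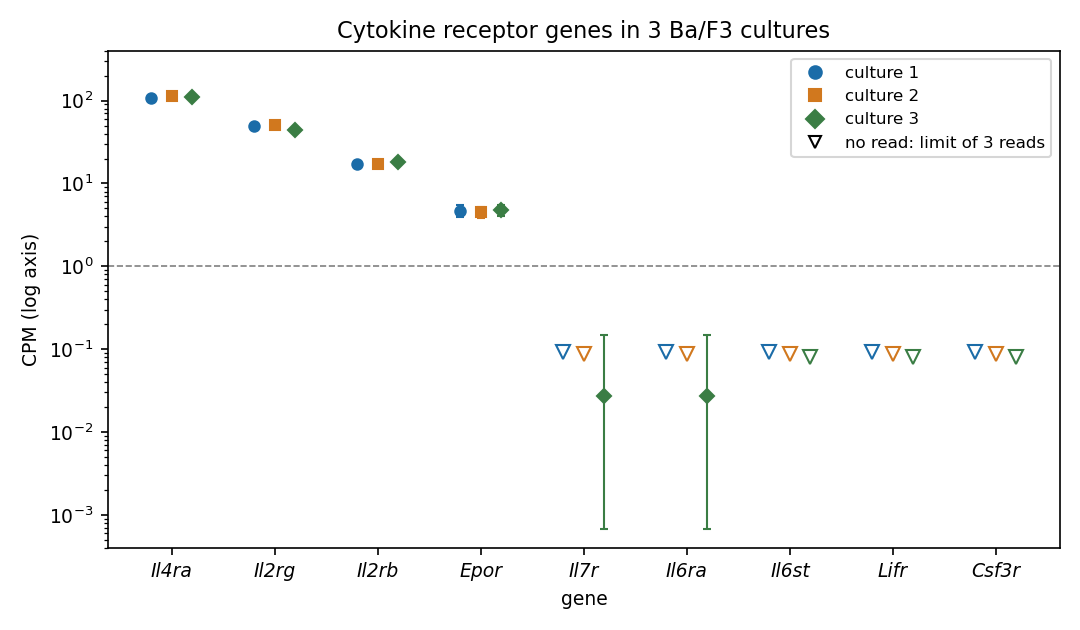
CPM of the 9 receptor genes (log axis) in cultures 1, 2 and 3, with exact Poisson 95% intervals of the reads; open triangles mark cultures without a read at the limit of 3 reads, and the dashed line is the detection threshold of 1 CPM. Il4ra, Il2rg, Il2rb and Epor sit above 4 CPM in every culture, and the other genes are at or below 1 read.

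Il4ra, the chain that binds IL-4 and also serves the IL-13 receptor, lies on chromosome 7 (ENSMUSG00000030748, GRCm38 125552120 to 125579474, plus strand). It was read at 107, 113 and 111 CPM in cultures 1, 2 and 3, a mean of 110.4 ± 2.84 (SD, n = 3) and the highest of the 9. The cultures lay close together, and the gene stood at the 80.2 percentile of all detected genes. The antisense gene Gm44876 inside it had no read.

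Il2rg, the common gamma chain (ENSMUSG00000031304, chromosome X, 101264378 to 101268255, minus strand), stood at 50.1, 51.2 and 44.2 CPM, or 48.5 ± 3.76. Culture 3 was the lowest, and the gene was at the 55.7 percentile. Il2rb, the β chain of the IL-2 and IL-15 receptors (ENSMUSG00000068227, chromosome 15, 78479256 to 78495271, minus strand), stood at 17.3, 17.4 and 18.4 CPM, or 17.7 ± 0.598. It lay at the 29.6 percentile and was nearly level over the cultures.

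Epor, the erythropoietin receptor gene (ENSMUSG00000006235, chromosome 9, 21958897 to 21963506, minus strand), was the lowest of the detected genes. It had 148, 152 and 177 reads, which gave 4.62, 4.49 and 4.76 CPM and a mean of 4.62 ± 0.137, the 11.7 percentile. The exact Poisson 95% intervals, 3.90 to 5.43, 3.80 to 5.26 and 4.09 to 5.52 CPM, all overlapped. Its intervals cover counting error only, as do all limits given here, since the reads carry no molecular identifiers.

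Il7r, the α chain for IL-7 and thymic stromal lymphopoietin (TSLP), and Il6ra, the α chain for IL-6, had no read in cultures 1 and 2 and 1 read, 0.0269 CPM, in culture 3. Il7r is at chromosome 15, 9505788 to 9530176, minus strand (ENSMUSG00000003882), and Il6ra at chromosome 3, 89864059 to 89913196, minus strand (ENSMUSG00000027947). A single read among the 103106064 of all cultures corresponds to 0.00970 CPM with an exact Poisson 95% interval of 0.000246 to 0.0540. Per length, the pooled Epor level was 959 times that of Il7r (172 to 37874 by the interval of that read) and 2340 times that of Il6ra (420.0 to 92427).

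Il6st, Lifr and Csf3r had 0 reads in every culture. Il6st, the gp130 gene, lies at chromosome 13, 112464070 to 112510086, plus strand (ENSMUSG00000021756). Lifr is at chromosome 15, 7090614 to 7197489, plus strand (ENSMUSG00000054263), and Csf3r at chromosome 4, 126024550 to 126044440, plus strand (ENSMUSG00000028859). A count of 0 allows up to 3 reads, or 0.0936, 0.0885 and 0.0807 CPM in cultures 1, 2 and 3 and 0.0291 CPM over the group. Set against that group limit and per transcript length, pooled Epor was at least 784-fold higher than Il6st, at least 872-fold higher than Lifr and at least 314-fold higher than Csf3r. The corresponding bounds for Il2rg were at least 8633-fold, 9605-fold and 3463-fold.

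Per length, the order among the detected genes changed. Il2rg led with 29.99, 30.7 and 26.5 RPKM, a mean of 29.0 ± 2.25. Il4ra followed at 20.4, 21.5 and 21.1, or 21.0 ± 0.541, its long transcript (5256 bases against 1670) having placed it first by reads alone. Il2rb had 4.12, 4.15 and 4.38, or 4.22 ± 0.143, and Epor 2.62, 2.55 and 2.70, or 2.62 ± 0.0778. The ranges of neighbouring genes did not overlap for any of the 3 steps of this order. With the union of all exons as length, Il2rg (20.3) and Il4ra (18.4) were no longer apart.

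Within a culture, Il2rg was 1.47, 1.43 and 1.25 times Il4ra per length in cultures 1, 2 and 3, or 1.38 ± 0.116. It was 7.28, 7.40 and 6.04 times Il2rb, or 6.91 ± 0.748. Il2rb was 1.61 ± 0.0302 times Epor. With the longest transcript as length, all 3 ratios were above 1 in every culture. Among 10078 detected protein-coding genes, whose median was 12.9 RPKM, Il2rg stood at the 76.1 percentile, Il4ra at 66.2, Il2rb at 18.3 and Epor at 11.4.

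**Figure D2:**
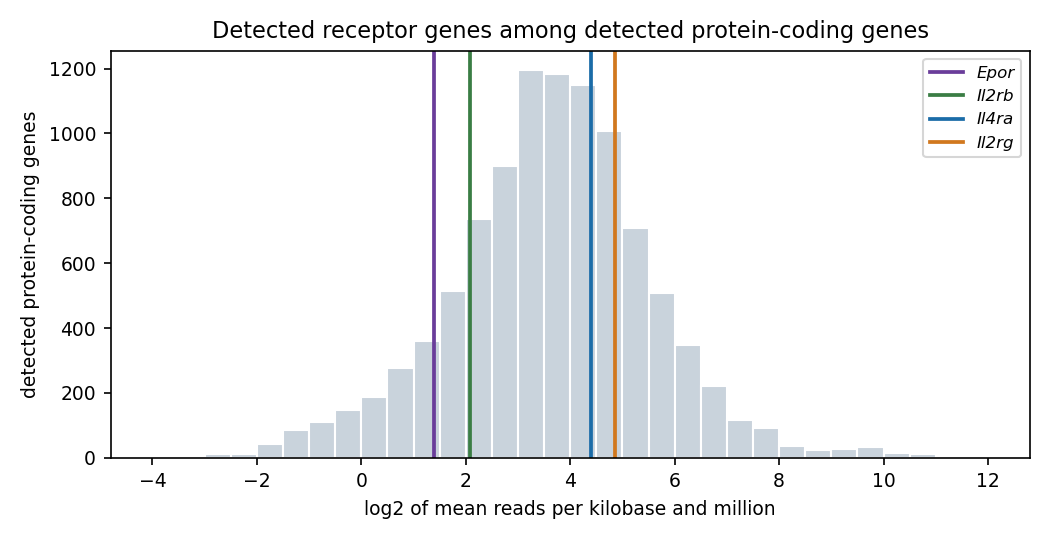
Number of detected protein-coding genes (bars) by log2 of the mean RPKM over the cultures, with vertical lines at the 4 detected receptor genes. Il2rg and Il4ra lie above the median of 12.9, and Il2rb and Epor in the lower tail.

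The chains that pair with these receptors showed which complexes had all their transcripts. The lists were the common gamma chain family with 11 genes, the gp130 family and its relatives with 14, single chain class I receptors with 4, the beta common family with 5 and class II receptors with 10. Over all 44 genes 20 were detected and 12 had no read, or 45.5% detected beside 45.9% of protein-coding genes. The common gamma chain list had 7 of 11 detected, the gp130 list 3 of 14, the single chain list 1 of 4, the beta common list 4 of 5 and the class II list 5 of 10. The median over a list was 7.74 CPM for the common gamma chain family and 0.00448 CPM for the gp130 family, beside 0.231 CPM over all protein-coding genes. In the class II list the highest were the interferon receptor genes Ifnar1 (57.1 ± 1.81 CPM), Ifngr1 (45.7 ± 0.711) and Ifnar2 (36.8 ± 1.91), and Il10ra, Il20ra and Ifnlr1 had no read. Differences between lists were not tested.

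For IL-2, all 3 chains were detected. Il2ra, the α chain that raises affinity, stood at 7.86, 7.91 and 7.45 CPM, and Il2rb was 2.41 ± 0.163 times Il2ra per length. Il15ra, the α chain for IL-15, had 641, 565 and 565 reads, or 17.3 ± 2.46 CPM, and stood per length of the longest transcript at 1.78 ± 0.301 times Il2rb. With the union of all exons as length the ratio turned to 0.946 ± 0.160, so the order of Il15ra and Il2rb depends on the length used. Culture 1 was the highest for Il15ra, and the cultures lay close together for Il2ra.

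For IL-4, both Il4ra and Il2rg were present, while Il13ra1, the chain that joins IL-4Rα in the other IL-4 and IL-13 receptor, had 1 read in each culture. Il13ra2, the IL-13 decoy receptor, had 2 reads in all. Il21r, whose gene is the nearest coding neighbour of Il4ra, 23955 bases away on the same strand, stood at 4.03, 3.51 and 3.01 CPM. Per length Il4ra was 15.2 ± 2.44 times Il21r, so neighbouring receptor genes differed widely in level. Il9r had 2 reads in each culture.

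Il7r had 1 read although both of its partners were detected. Crlf2, the TSLP receptor chain, stood at 18.9, 20.7 and 33.2 CPM, with culture 3 well above the others. Per length, Crlf2 was 0.450, 0.480 and 0.893 times Il2rg in cultures 1, 2 and 3, and 0.604, 0.645 and 1.199 times by the union of exons, above Il2rg in culture 3. The coding neighbours of Il7r, Capsl and Spef2, had no read.

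In the gp130 list, gp130 and the signalling chains that pair with it for LIF and oncostatin M were without reads: Il6st, Lifr and Osmr, the oncostatin M receptor, were all at 0. Cntfr, Il31ra, Il23r and Csf3r were at 0 as well. Il31ra is the nearest coding neighbour of Il6st at 9812 bases, and Osmr is the next coding gene before Lifr in coordinates, at 215645 bases. The highest were Il27ra, the IL-27 receptor α chain that works with gp130, at 30.7 ± 0.827 CPM, and Il12rb1, a chain of the IL-12 and IL-23 receptors, at 3.33 ± 0.396. Il11ra1 lay around the threshold at 2.09, 0.974 and 1.26 CPM.

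Epor was the detected gene of the single chain list. Ghr and Prlr, the growth hormone and prolactin receptors, had no read. Rgl3, the nearest coding gene at higher coordinates, which is upstream of Epor on its minus strand, had 1 read. Swsap1, 633 bases away on the downstream side, stood at 7.27 CPM. Tfr2, known as an Epor partner in red cell precursors, was detected at 77.2 ± 3.80 CPM.

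**Figure D3:**
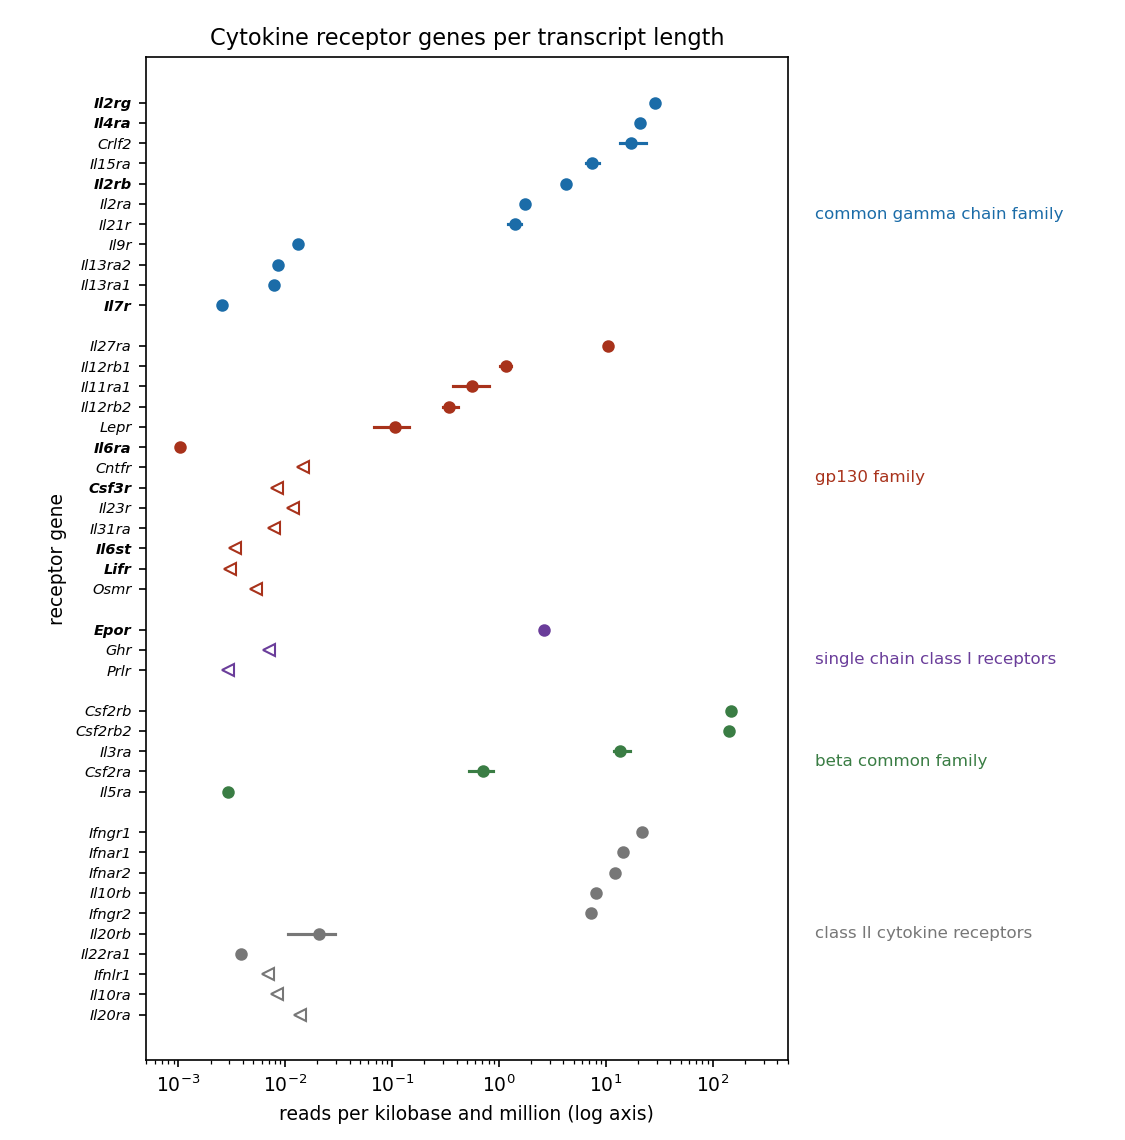
Mean RPKM (log axis) of receptor genes by list, with bars for the range over the 3 cultures where all have reads; open triangles mark genes without a read at the group limit of 3 reads, and the 9 genes described here are in bold. Il2rg and Il4ra stand high in the common gamma chain list, while Il6st, Lifr and Csf3r are among the genes without a read.

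Of the chains of the IL-3 receptor, on which the cells depend, the β chain was above all 9 genes and the α chain was below Il2rg and Il4ra. Csf2rb, the shared β chain, was 5.08 ± 0.281 times Il2rg and 56.1 ± 2.98 times Epor per length. The closely related gene Csf2rb2 stood at 142 ± 4.44 RPKM, also above all 9 genes. The split of reads between Csf2rb and Csf2rb2 is uncertain, since shared stretches were not counted for this pair. Il3ra, the IL-3 receptor α chain, stood at 13.6 ± 2.75 RPKM. Of the 15 class I genes detected, Il2rg ranked 3, Il4ra 4, Il2rb 9 and Epor 10 per length of the longest transcript. By the union of exons Il2rb ranked 8, ahead of Il15ra, and the ranks of Il2rg, Il4ra and Epor were the same. Il4ra and Crlf2 overlapped in range, whereas Il2rb, Epor and Il2ra followed each other without overlap. The ranges of Il15ra and Il2rb were apart by the longest transcript and overlapped by the union of exons.

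Several ligands of receptors without reads were themselves read. Of 19 ligand genes for the 9 receptors, 7 were detected: Ebi3 at 46.9 ± 2.72 CPM, Osm at 21.3 ± 2.50, Lif at 19.8 ± 1.37, Il15 at 7.54 ± 0.140, Il6 at 3.92 ± 0.0170, Clcf1 at 2.46 ± 0.975 and Ctf1 at 1.97 ± 0.257. These 7 were 36.8% of the ligand list, beside 45.9% of all protein-coding genes. Of the 7, all but Il15 belong to cytokines that signal through gp130. Ebi3 encodes only a subunit of IL-27, and Il27, the gene of the other subunit, had 9 reads over all cultures. Lif was read at 21.1, 19.9 and 18.4 CPM while Lifr and Il6st had no read in the same cultures. Epo, Csf3, Il9 and Il21 had no read, Il2 had 1, Il4 had 2 and Il7 had 7 over all cultures.

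The kinases and factors behind these receptors were present almost in full. Of 11 JAK and STAT genes 10 were detected, and Stat4 had 1 read. Jak1, the partner of IL-2Rβ, IL-4Rα and gp130, stood at 776 ± 17.4 CPM, Jak2, the Epor kinase, at 236 ± 8.82, Tyk2 at 81.4 ± 3.62 and Jak3, the common gamma chain kinase, at 71.4, 53.5 and 60.9. Per length Jak1 was 10.5 ± 1.74 times Jak3. Stat6, the IL-4 factor, was at 158 ± 5.18 and Stat3, the gp130 factor, at 192 ± 3.67. Of 9 genes for shedding, turnover and restraint of receptors all were detected, led by the sheddase gene Adam10 (416 ± 11.3), the feedback gene Cish (391 ± 47.0) and the ubiquitin ligase gene Cbl (237 ± 25.5).

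Counts of the cultures were set against Poisson noise with a chi-square test, which asks whether reads differ between libraries by more than counting noise, with Benjamini-Hochberg adjustment over all 13141 genes with a mean of at least 10 reads. It compares these libraries, not conditions. Of the 4 receptor genes deep enough to test, 1 passed the threshold of 0.05, beside 32.8% of all genes tested and 45.0% of those with a mean of at least 1000 reads. That gene was Il2rg, with 1605, 1735 and 1644 reads and a ratio of 1.16 between its highest and lowest culture. The chi-square test fitted over all genes gave it an adjusted p of 1.9e-04. Culture 3 was below the others, and without it the same test gave an adjusted p of 0.737. With all cultures on the rows as deposited, that test gave 0.893, so the difference rests on how culture 3 was joined. Of the genes with a mean of at least 1000 reads, 13.7% had a ratio as large.

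Il4ra (1.05 times, adjusted p = 0.192), Il2rb (1.06 times, adjusted p = 0.637) and Epor (1.06 times, adjusted p = 0.918) did not pass the same chi-square test. For Il4ra the result turned on scaling: trimmed mean of M values gave an adjusted p of 0.0304 and median of ratios 0.0307, with culture 1 the lowest. The genes without reads could not be tested.

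Among the partner chains in the plot of culture differences, Crlf2 had the largest ratio between cultures, 1.75 times (chi-square test, adjusted p = 7.0e-37), and 0.355% of genes with a mean of at least 1000 reads had a ratio as large. Culture 3 was the highest, and without it the same test gave an adjusted p of 0.293. With all cultures on the rows as deposited, that test gave 0.202 for Crlf2. Il15ra differed by 1.32 times (chi-square test, adjusted p = 4.8e-05), with culture 1 highest, and without culture 1 the adjusted p was 0.372. Over the 44 receptor genes 7 of 23 tested passed, beside 32.8% of all genes tested. Those that passed were Il2rg, Il15ra, Crlf2, Il11ra1, Csf2rb, Csf2rb2 and Il3ra. Of these, Il11ra1 no longer passed without culture 1 (adjusted p = 0.550, chi-square test) and Il3ra without culture 3 (adjusted p = 0.708, same test). On the rows as deposited Il3ra still passed that test, with an adjusted p of 7.8e-05 against 3.9e-19 when joined by gene. Il3ra was highest in culture 3, as Crlf2 was, while Il2rg was lowest there; 3 cultures do not allow a test of such joint movement.

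**Figure D4:**
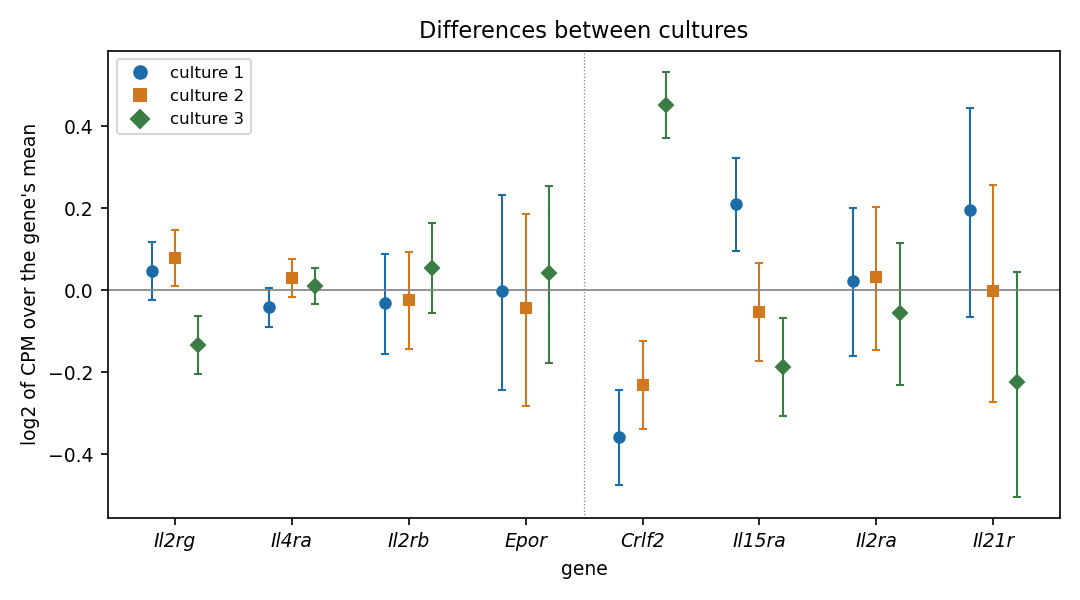
Log2 of each culture's CPM over the gene's mean, with exact Poisson 95% intervals of the reads, for the 4 detected receptor genes (left of the dotted line) and 4 partner chains. Culture 3 is low for Il2rg and high for Crlf2, and the intervals of Il2rb and Epor overlap across cultures.

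The CpG counts of the promoters overlapped between the genes with reads and those without. A RefSeq promoter window (GRCm38.p6) of 300 bases was at hand for 8 of the 9 genes, all but Il2rb. Its CpG count, the letters CG on 1 strand, which read the same on the other, was 25 for Il4ra, 3 for Il2rg and 7 for Epor among the detected genes. It was 33 for Il6st, 25 for Il6ra, 9 for Csf3r and 1 for Il7r, and 53 and 4 for the alternative starts of Lifr, among those with at most 1 read. Over 16489 coding genes with a window, 74.9% of those with at least 23 CpG were detected and 15.7% had at most 1 read. Of those with at most 7 CpG, 13.3% were detected and 70.3% had at most 1 read. Il6st, Il6ra and Lifr (by the richer of its windows) thus stood with the 15.7%, and Il2rg and Epor with the 13.3%. Il4ra stood with the 74.9% and Il7r with the 70.3%. Csf3r lay in the class of 8 to 22 CpG, of which 61.1% were detected and 25.6% had at most 1 read.

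The bases before the annotated start are shown for Il6st and Il6ra, which are rich in CpG and had at most 1 read, and for Il2rg, which has few and was read at 48.5 CPM. Each runs 5′ to 3′ in the direction of the gene, with CpG in capitals.
Il6st, chr13:112463820-112464069, plus strand: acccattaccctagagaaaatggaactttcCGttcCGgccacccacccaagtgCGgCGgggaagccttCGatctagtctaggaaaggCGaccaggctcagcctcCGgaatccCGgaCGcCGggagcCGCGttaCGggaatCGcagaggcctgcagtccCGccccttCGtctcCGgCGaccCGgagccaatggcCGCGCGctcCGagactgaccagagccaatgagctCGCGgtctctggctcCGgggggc
Il6ra, chr3:89913197-89913446, minus strand: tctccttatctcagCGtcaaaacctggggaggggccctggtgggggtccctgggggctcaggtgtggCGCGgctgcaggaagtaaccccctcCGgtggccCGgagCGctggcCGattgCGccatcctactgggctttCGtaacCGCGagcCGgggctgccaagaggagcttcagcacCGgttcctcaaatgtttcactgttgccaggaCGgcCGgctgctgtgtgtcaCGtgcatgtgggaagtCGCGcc
Il2rg, chrX:101268256-101268505, minus strand: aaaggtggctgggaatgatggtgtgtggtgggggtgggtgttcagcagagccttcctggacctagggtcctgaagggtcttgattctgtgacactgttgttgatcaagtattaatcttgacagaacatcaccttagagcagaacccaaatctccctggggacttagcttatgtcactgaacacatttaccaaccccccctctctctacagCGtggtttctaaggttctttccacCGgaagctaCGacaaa
Within these 250 bases the CpG count was 26 for Il6st, 18 for Il6ra and 3 for Il2rg. The count describes these letters in this window; which start the cells use and the methylation of these sites were not measured.

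The label of the cells was checked against marker lists. All 6 pan-haematopoietic genes were detected, with a summed level of 3721 to 3808 CPM, and 0 of 7 T and NK cell genes. Ba/F3 is commonly described as a pro-B line, and 2 of 10 early B lineage genes were detected (Cd79a and Cd79b, summed level 20.1 to 22.1 CPM for the list), and Ebf1, Igll1, Rag1, Rag2 and Dntt were at 0. Of 7 granulocyte and monocyte genes 4 were detected, of 7 erythroid genes 4, of 6 mast cell and basophil genes 2, and of 5 stromal and epithelial genes 1, Pecam1, which blood cells also express. The summed levels of these lists were 197 to 204, 252 to 277, 604 to 645 and 157 to 164 CPM, all above the B lineage list. Gata2 (616 CPM) and Hba-a1 (182 CPM) held most of the mast cell and basophil and the erythroid sums. By the same rule 45.9% of protein-coding genes were detected. The part of cell identity in the receptor levels was not tested, and in bulk RNA fewer expressing cells and less RNA per cell cannot be told apart.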

How the data were processed

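The authors aligned reads to GRCm38 with HISAT2 and counted them per gene with GenSum, per the series' design text and the labels; neither versions nor the strand setting of the counting are stated in the labels, which name a stranded library kit. The deposited table holds log2(reads per 10000000 + 1), a scale read from its values: undoing the log gave whole reads for 100% of entries (tolerance 0.01). In it, cultures 1 and 2 follow the gene identifiers and culture 3 the symbols and coordinates. Culture 3 was joined by GENCODE M21 coordinates (54916 rows) or symbol (324 rows), leaving 246 rows out. Among the first 500 rows the 95th percentile of the log2 difference between cultures 1 and 3 was 4.57 on the same row and 0.33 once joined.

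Reads were scaled to column totals. The design anticipated recovered reads, so the planned chi-square test was used. It was also run on simulated Poisson reads, scaled by trimmed mean of M values. That run cannot show how the test behaves where cultures vary beyond counting noise. Named were the 9 genes, for each list the leading detected genes and those without reads, and partner chains and kinases; no gene was named for a like pattern, since 3 cultures of 1 group hold none. Neighbouring genes, Il11ra1, Stat4, Stat6, Il7, Il2, Il4, Il27, Tfr2 and the ligands after the leading 3 were named after their values were seen. A few list genes count in the totals but are not reported here by name. The members and lists were chosen with earlier results of these data known. The cultures are stated to be separate, and p-values measure the spread between their libraries, 1 per culture. Alternatives covered thresholds, scaling, length, row order and leaving out a culture. Python 3.11.15, NumPy 2.4.6, pandas 2.3.3 and SciPy 1.17.1 were used.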

Additional observations from a re-analysis of the deposited data

How the results depend on the processing

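The count of 4 detected receptor genes held at 0.5 CPM, with 1 culture enough, per length, with other scaling, on the rows as deposited and without any 1 culture; at 5 CPM it was 3, Epor being lost. For the 44 receptor genes the count of 20 ranged from 15 at 5 CPM to 22 at 0.5 CPM. The number of the 9 genes that differed between cultures by the chi-square test was 1, but 2 with trimmed mean of M values and 2 with median of ratios, which add Il4ra. It was 0 on the rows as deposited, where 0 passed unadjusted, and 0 to 1 when each culture was left out; the lower value came without culture 3, with 1 gene at an unadjusted p below the threshold. The rows as deposited set culture 3 beside cultures 1 and 2 by row rather than by gene. There 30.3% of genes tested passed, beside 32.8% when joined. How many rows then pair different genes was not counted. All 3 neighbouring pairs in the order per length stayed apart, except 2 with the union of exons. The log2 ratio of Il2rg to Il4ra per length was 0.47, and -1.19 without division by length, which follows from the transcript lengths. It was 0.14 with the union of exons and 1.28 per stretch found in no other gene, an alternative chosen after seeing the data. The log2 ratio of Il15ra to Il2rb was 0.82, and turned to -0.094 with the union of exons and -0.041 without division by length, also chosen after seeing the data; it was 0.69 to 0.93 when each culture was left out. No paired analysis was possible because there is 1 group. Depth sets the limit of 3 reads for the genes without reads at 0.0291 CPM over the group.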
